A study of Mus musculus with 2 samples.

Results

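The genes described here make up the machinery that copies DNA in S phase, together with the regulators that switch this machinery on at the end of G1. They are 49 genes chosen by name for their known function, and each was found as an entry of its own among the 14865 entries of the deposited expression table that carried a gene symbol and the status OK, the label Cuffdiff gives to entries it could quantify. The measurements came from mouse embryonic fibroblasts (MEFs), with 1 strand-specific mRNA-seq library of Dnmt1+/+ MEFs and 1 of Dnmt1-/- MEFs. The Dnmt1-/- cells carry a hypomorphic allele on both copies of Dnmt1, the gene for the methyltransferase that maintains DNA methylation, and are severely hypomethylated but viable in culture. Both lines, the control cells included, are also homozygous null for Trp53, which encodes p53. The age of the embryos and the number of clones behind each line are not given in the sources used here. No genotype has a second library, so the differences could not be set against a spread between replicates, no p-value is given, and every value below describes these libraries.

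DNA replication is prepared in G1, when the origin recognition complex (ORC), CDC6 and CDT1 load the MCM2-7 helicase onto origins, a step known as licensing. At the start of S phase, the kinase CDC7-DBF4 and the cyclin E kinase activate the loaded helicase, which travels with CDC45 and the GINS complex as the CMG helicase. DNA polymerase alpha-primase lays down primers, the RFC complex loads the sliding clamp PCNA, and polymerases delta and epsilon copy the strands while RPA covers the exposed single strands. Many of these genes are known to be transcribed in a burst at the G1/S boundary by E2F transcription factors. In growing fibroblasts they are therefore widely used as a sign of proliferation. In bulk RNA, a larger share of cells in S phase cannot be told apart from more mRNA in each such cell.

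Expression is given as RPKM, a read density normalised to transcript length and to the total of mapped reads, so levels can be compared between genes. The change of a gene is log2(RPKM + 0.1) in Dnmt1-/- minus the same in Dnmt1+/+ MEFs. The median change of all 14865 named entries was -0.09, and changes are given relative to it, as relative log2 changes. For genes with low RPKM the pseudocount of 0.1 makes the change look smaller than it was. The targeted gene, Dnmt1, was at 65.2 RPKM in the control library and 14.5 in the Dnmt1-/- library. Trp53 was at 18.6 and 19.9 RPKM. The kind of null allele is not given in the sources used here, so these values over the whole gene do not check the p53 genotype. Of 11 fibroblast markers, 10 reached 1 RPKM in Dnmt1+/+ and 9 in Dnmt1-/- MEFs. The list moved in both directions. S100a4 (290 and 1262 RPKM), Pdgfra (6.95 and 18.7) and Dcn (2.43 and 4.71) were more than 2-fold higher relative to the median, while Col1a2 (1241 and 476), Fn1 (664 and 235) and Thy1 (4.84 and 0.129) were past 2-fold in the other direction, and Fap was below 0.1 in both. Of 21 markers of other cell types found in the table, Cd34 and Tubb3 reached 1 RPKM in Dnmt1+/+, and Cd68 and Tubb3 did so in Dnmt1-/- MEFs. The part of such cells in the results below was not tested.

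The replication genes were well expressed in both lines, and most were slightly higher in Dnmt1-/- MEFs. Their median RPKM was 25.8 in control and 33.0 in Dnmt1-/- MEFs, against 6.36 and 5.63 for all named entries. All 49 reached 1 RPKM in at least 1 of the libraries, and E2f2 alone did not reach it in both. Relative to the median of all entries, 35 of the 49 genes (71.4%) were higher and 14 were lower in Dnmt1-/- MEFs. Among entries that reached 10 RPKM in at least 1 library, 50.2% were above this median. Without adjustment to the median, 30 of the 49 genes had a higher RPKM in Dnmt1-/- and 19 a lower one. The median change of all named entries was then -0.09, so most of them had a lower RPKM. The direction of Mcm6, Pold1, Mcm10, Cdc7 and E2f1, all close to the median, turns on this adjustment. The median relative log2 change of the 49 genes was 0.24, with the middle 50% between -0.13 and 0.41.

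Large changes were few. Of the 49 genes, 2 were more than 2-fold higher relative to the median in Dnmt1-/- MEFs, where 10.8% of all named entries were, and 1 was more than 2-fold lower, where 9.53% of all entries were. Among the 6493 entries that reached 10 RPKM in at least 1 library, 6.33% lay above the 2-fold threshold and 5.22% below it. Together the 3 genes are 6.12% of the group, while 20.3% of all entries and 11.6% of the well expressed ones differed by more than 2-fold in either direction. At a 1.5-fold threshold, 9 of the 49 genes were higher, about the same share as the 18.4% of all entries. The 4 genes that were lower made up a smaller share than the 19.8% of all entries. In either direction, 38.2% of all entries were past 1.5-fold. Among the well expressed entries 14.5% were higher and 14.2% lower, or 28.6% in either direction. The other 36 (73.5%) stayed within 1.5-fold of the median, as did 61.8% of all entries and 71.4% of those that reached 10 RPKM. The share within 1.5-fold was thus close to that of other well expressed genes. The order of the levels was also similar in the libraries, with a Spearman correlation of 0.94 across the 49 genes, which share the same 2 libraries and are not independent replicates.

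**Figure D1:**
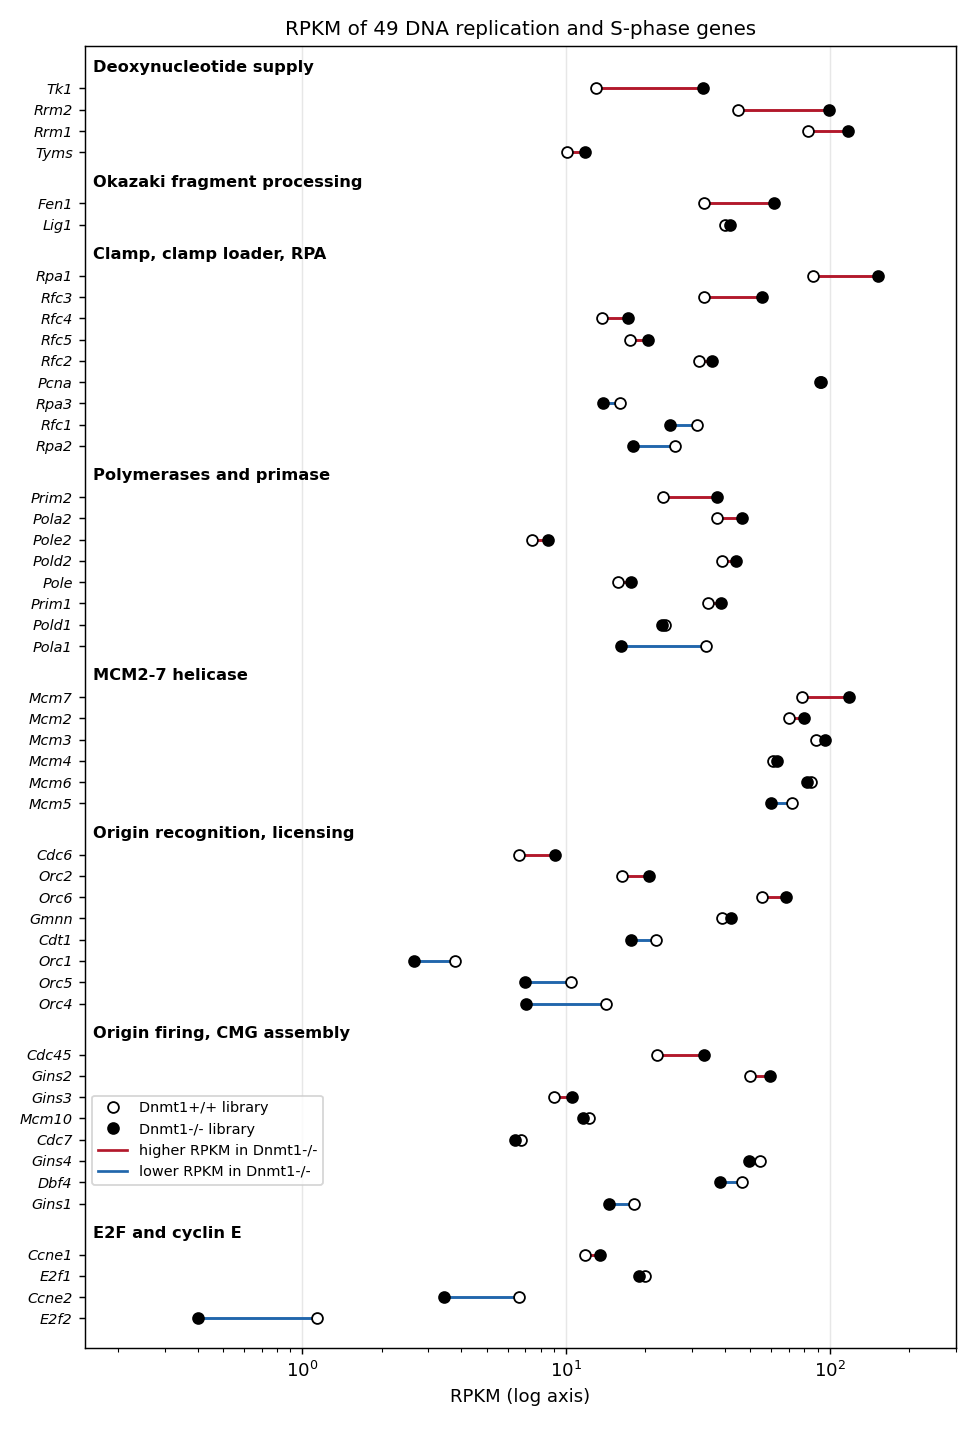
RPKM (log axis) of each of the 49 genes in the Dnmt1+/+ library (open circles) and the Dnmt1-/- library (filled circles), by function, with 1 library per genotype and no error bars. Lines are red where RPKM was higher in Dnmt1-/- and blue where it was lower: all 4 genes of deoxynucleotide supply are red, and the widest gaps are those of Tk1, Rrm2, Pola1 and E2f2.

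The genes that supply deoxynucleotides were the group with the highest median, a relative log2 change of 0.92, and all 4 were higher in Dnmt1-/- MEFs. Tk1, thymidine kinase of the salvage pathway, was at 12.9 RPKM in Dnmt1+/+ and 33.0 in Dnmt1-/- MEFs, a relative log2 change of 1.43 and the highest of all 49 genes. Rrm2, the small subunit of ribonucleotide reductase whose abundance limits the enzyme in S phase, was at 44.9 and 99.4 RPKM, a relative log2 change of 1.23. These were the 2 genes past 2-fold.

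Rrm1, the large subunit of the same enzyme, was at 82.5 RPKM in Dnmt1+/+ and 118 in Dnmt1-/- MEFs, so that the ratio of Rrm2 to Rrm1 was 0.544 in the former and 0.845 in the latter. Tyms, which makes thymidylate de novo, was low for the group at 10.1 and 11.8 RPKM and stayed within 1.5-fold. Tk1 lies on the minus strand of chromosome 11 (mm9 chr11:117676840-117687406), within the annotated span of Afmid on the opposite strand. Afmid, at 1.82 and 3.98 RPKM, was also higher in Dnmt1-/- MEFs. It is not stated whether reads were assigned to genes with regard to strand, so the value of Tk1 is uncertain to that extent. In all, 12 of the 49 genes are overlapped by a protein-coding gene on the opposite strand, in most cases for a small part of their length, and the same uncertainty holds for them. Exceptions besides Tk1 include Gins2, overlapped over all of its 10672 bases, and Orc2, overlapped over 19046 of its 42339 bases. Rrm2, on the plus strand of chromosome 12 (mm9 chr12:25393106-25399011), has no such overlap in the annotation.

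Among related enzymes outside the 49 genes the direction was mixed; those named here were chosen after their values were seen. Rrm2b, the ribonucleotide reductase subunit that p53 is known to induce, was at 3.33 RPKM in Dnmt1+/+ and 1.56 in Dnmt1-/- MEFs. Tk2, the mitochondrial thymidine kinase, was at 8.45 and 4.75 RPKM. In the other direction, Dck, the deoxycytidine kinase, was at 14.1 and 16.7 RPKM, and Samhd1, which breaks down deoxynucleotides, was at 36.01 and 62.0. The ratio of Rrm2 to Rrm2b was 13.5 in Dnmt1+/+ and 63.9 in Dnmt1-/- MEFs, and that of Tk1 to Tk2 was 1.53 and 6.94.

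The 4 E2F and cyclin E genes among the 49 did not share the higher values of the nucleotide genes, with a median relative log2 change of -0.41. The 2 below the median of all entries, E2f2 and Ccne2, both lie on chromosome 4, where all named entries had a median of -0.40. Among 24 entries for other G1/S regulators the median was 0.07. E2f1, an activator of S-phase genes, was at 19.9 RPKM in Dnmt1+/+ and 18.9 in Dnmt1-/- MEFs, a relative log2 change of 0.01. E2f2, a second activator, was at 1.13 and 0.402 RPKM. Its relative log2 change of -1.21 was the lowest of the 49 genes and the one past 2-fold in this direction, but its level was the lowest in either library, and with a pseudocount of 1 RPKM in place of 0.1 the value was -0.55.

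The cyclin E genes, which encode the partners of CDK2 at the G1/S boundary, differed in direction. Ccne1 was at 11.8 RPKM in Dnmt1+/+ and 13.5 in Dnmt1-/- MEFs, whereas Ccne2 was at 6.61 and 3.43 RPKM, a relative log2 change of -0.84. The 3′ parts of Ccne2 and Ints8 overlap on opposite strands for 5622 bases, and Ints8 was also lower in Dnmt1-/- MEFs, at 8.77 RPKM against 22.9. The Ccne1 level was 1.78 times that of Ccne2 in Dnmt1+/+ MEFs and 3.93 times in Dnmt1-/- MEFs.

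A feature that some of these genes share lies in their promoters. It was not itself used to choose them, but a list of S-phase genes is not independent of E2F sites, given the known regulation described above. RefSeq promoter windows (250 bases before to 50 after the start, build GRCm38.p6) were matched by symbol for 40 of the 49 genes. These 40 genes had 50 windows, so some had more than 1, each with its own start. A gene was counted as holding the letters if any of its windows held them. The genes without a window were Mcm4, Gins1, Gins2, Gins4, Rfc2, Prim2, Pole, Gmnn and Ccne2. The letters of an E2F site were searched on both strands as TTTCCCGC, TTTGGCGC, TTTCGCGC and TTTGCCGC, some of which can overlap each other when read on opposite strands. They were found for 14 of the 40 genes (35%), against 704 of 27025 genes with a window (2.6%). The letters CCAAT, searched in the same way, were found for 24 of the 40 genes (60%), against 41.1% of all genes. The comparison is with all genes that have a window, and the base content of the promoters was not matched. A match describes the letters and is not evidence of binding.

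The E2F letters did not go with 1 direction of change. Of the 14 genes that hold them, 9 were higher and 5 lower relative to the median, with a median relative log2 change of 0.10. Of the 26 without them, 20 were higher and 6 lower, with a median of 0.28. Tk1, Rrm2, Fen1 and Rpa1, with the 4 highest relative changes, are among the 26. So are E2f1, Ccne1 and Pcna. Only these exact letters within the windows were searched, so a gene without them may hold an E2F site in another spelling or place. Whether E2F regulation goes with the direction of change was not tested. The 250 bases before the start are shown for some of the genes with E2F letters. Where a gene had more than 1 window, the first one with the marked letters before its start is shown. Mcm7 and Cdc6 had higher values, and Mcm5, Orc1 and Pola1 lower ones. Rfc3 and E2f2, with the highest and lowest relative changes of the 14, are not shown. Rrm2, which has CCAAT but no E2F letters in any window, is shown as well. Capitals mark the E2F letters on either strand, or CCAAT in Rrm2. All read 5′ to 3′ on the strand of the gene.
Mcm7 (chr5:138171884-138172133, minus strand): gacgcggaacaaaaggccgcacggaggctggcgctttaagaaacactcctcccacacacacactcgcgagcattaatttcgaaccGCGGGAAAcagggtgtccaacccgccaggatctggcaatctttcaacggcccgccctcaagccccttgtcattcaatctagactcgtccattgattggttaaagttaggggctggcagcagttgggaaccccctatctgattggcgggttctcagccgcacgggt
Cdc6 (chr11:98907901-98908150, plus strand): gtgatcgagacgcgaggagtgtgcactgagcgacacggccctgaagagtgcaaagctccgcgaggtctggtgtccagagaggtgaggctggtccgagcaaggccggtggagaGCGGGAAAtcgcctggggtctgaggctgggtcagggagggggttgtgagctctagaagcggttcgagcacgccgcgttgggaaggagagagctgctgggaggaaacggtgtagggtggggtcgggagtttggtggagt
Mcm5 (chr8:75109259-75109508, plus strand): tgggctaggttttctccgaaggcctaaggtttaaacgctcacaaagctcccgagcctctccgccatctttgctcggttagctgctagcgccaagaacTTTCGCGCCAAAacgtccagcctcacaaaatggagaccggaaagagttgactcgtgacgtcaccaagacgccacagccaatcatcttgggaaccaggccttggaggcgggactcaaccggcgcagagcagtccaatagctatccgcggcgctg
Orc1 (chr4:108579204-108579453, plus strand): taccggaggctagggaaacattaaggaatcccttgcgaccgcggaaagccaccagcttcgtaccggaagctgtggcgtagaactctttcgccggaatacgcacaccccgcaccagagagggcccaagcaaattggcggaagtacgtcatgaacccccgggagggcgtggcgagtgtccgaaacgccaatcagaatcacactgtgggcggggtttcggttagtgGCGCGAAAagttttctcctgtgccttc
Pola1 (chrX:93632156-93632405, minus strand): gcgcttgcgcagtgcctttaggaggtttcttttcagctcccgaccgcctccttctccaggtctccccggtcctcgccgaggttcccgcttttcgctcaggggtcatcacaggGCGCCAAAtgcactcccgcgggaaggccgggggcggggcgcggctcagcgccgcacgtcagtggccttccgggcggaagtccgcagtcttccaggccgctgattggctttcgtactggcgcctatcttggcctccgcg
Rrm2 (chr12:24708004-24708253, plus strand): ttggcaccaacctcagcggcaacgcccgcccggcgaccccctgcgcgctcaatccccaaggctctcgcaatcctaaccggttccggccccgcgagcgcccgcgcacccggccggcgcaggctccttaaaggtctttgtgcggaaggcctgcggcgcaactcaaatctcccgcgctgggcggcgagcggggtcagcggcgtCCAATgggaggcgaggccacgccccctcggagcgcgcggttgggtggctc
In Mcm5 the matches on the plus and minus strands overlap, starting 153 and 149 bases before the start. The E2F letters begin 165 bases before the start in Mcm7, 138 in Cdc6 and in Pola1, and 27 in Orc1. Each distance is counted from the RefSeq start of the window shown, which may differ from the annotated start of the gene. Mcm7 and Mcm5, subunits of the same helicase with changes of opposite sign, thus both hold E2F letters before the start in the windows shown. Mcm7 also holds TTTCGCGC, a spelling found in Mcm5 too, from base 17 after the start, outside the stretch shown.

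The 8 genes of origin recognition and licensing were evenly divided, with 4 above and 4 below the median of all entries and a median relative log2 change of -0.02. Among the ORC subunits, which mark origins for helicase loading, Orc2 and Orc6 were higher and Orc1, Orc4 and Orc5 lower in Dnmt1-/- MEFs. Orc4 was at 14.1 RPKM in Dnmt1+/+ and 7.03 in Dnmt1-/- MEFs, a relative log2 change of -0.91. Orc5 was at 10.4 and 7.01 RPKM. Orc1, the ORC subunit whose expression is known to follow E2F, had the lowest level of the complex, 3.78 and 2.64 RPKM.

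In the other direction, Orc6 was at 55.3 RPKM in Dnmt1+/+ and 68.2 in Dnmt1-/- MEFs, and Orc2 was at 16.3 and 20.6 RPKM. The RPKM of the highest of these 5 ORC subunits was 14.6 times that of the lowest in Dnmt1+/+ and 25.8 times in Dnmt1-/- MEFs. Orc3, the remaining core subunit and not among the 49 genes, was at 9.37 and 4.82 RPKM, chosen for mention after its values were seen. The 3′ ends of Orc4 and Acvr2a overlap by 446 bases on opposite strands, and Acvr2a, at 4.73 and 2.11 RPKM, was lower as well.

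The loading factors and their inhibitor stayed within 1.5-fold of the median. Cdc6, which joins ORC to load the helicase, was at 6.62 RPKM in Dnmt1+/+ and 9.08 in Dnmt1-/- MEFs. Cdt1, its partner, was at 22.0 and 17.6 RPKM, and Gmnn, which encodes geminin, the inhibitor of CDT1, was at 39.0 and 42.3. The ratio of Cdt1 to Gmnn was 0.564 in Dnmt1+/+ and 0.417 in Dnmt1-/- MEFs.

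The 6 subunits of the MCM2-7 helicase were among the most highly expressed genes of the group and had similar levels in Dnmt1+/+ MEFs. In Dnmt1+/+ MEFs they lay between 61.2 RPKM for Mcm4 and 88.6 for Mcm3, a 1.45-fold range. In Dnmt1-/- MEFs they lay between 59.7 for Mcm5 and 119 for Mcm7, a 1.99-fold range. The upper end of the range moved more than the lower.

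Mcm7 was at 78.6 RPKM in Dnmt1+/+ and 119 in Dnmt1-/- MEFs, a relative log2 change of 0.68 and the one MCM subunit past 1.5-fold. Mcm5 was at 71.9 and 59.7 RPKM, and was the one subunit below the median of all entries. Mcm2 was at 69.9 and 79.7 RPKM, Mcm3 at 88.6 and 95.8, Mcm4 at 61.2 and 63.2, and Mcm6 at 84.8 and 82.0. Relative log2 changes of these 4 subunits lay between 0.04 and 0.28. Mcm7 also hosts microRNA genes in its introns, of which Mir93, measured as a separate entry, was at 1.36 RPKM in Dnmt1+/+ and 3.51 in Dnmt1-/- MEFs. An RPKM for so short a gene in an mRNA library is uncertain.

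Genes of origin firing and of CMG assembly changed little, with a median relative log2 change of 0.02 over 8 genes. The exception was Cdc45, the factor that completes the active helicase, at 22.0 RPKM in Dnmt1+/+ and 33.4 in Dnmt1-/- MEFs, a relative log2 change of 0.69. The subunits of GINS lay within 1.5-fold of the median, with Gins2 (49.7 and 59.6 RPKM) and Gins3 (9.0 and 10.5) higher, and Gins1 (18.1 and 14.6) and Gins4 (54.5 and 49.6) lower. The kinase gene Cdc7 was at 6.73 and 6.38 RPKM and its activator Dbf4 at 46.4 and 38.3. Mcm10, which helps the helicase to start unwinding, was at 12.2 and 11.6 RPKM.

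At the fork, the clamp and the proteins around it differed within their complexes. Pcna, the sliding clamp, had the highest RPKM of all 49 genes in Dnmt1+/+ MEFs and was nearly the same in both lines, at 92.2 and 92.8. Of the clamp loader subunits, the 4 small ones were higher than the median of all entries and the large one was lower. Rfc3 changed most, from 33.3 RPKM in Dnmt1+/+ to 55.3 in Dnmt1-/- MEFs, a relative log2 change of 0.81.

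The remaining small subunits were at 13.6 and 17.2 RPKM for Rfc4, 17.5 and 20.4 for Rfc5, and 32.0 and 35.6 for Rfc2. Rfc1, the large subunit, was at 31.4 RPKM in Dnmt1+/+ and 24.8 in Dnmt1-/- MEFs. Rfc1 and Rfc3 thus had similar levels in Dnmt1+/+, with a ratio of Rfc3 to Rfc1 of 1.06, and different ones in Dnmt1-/- MEFs, with a ratio of 2.23.

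The subunits of RPA, the trimer that binds single-stranded DNA, showed the same unevenness. Rpa1, the large subunit with the main DNA-binding domains, was at 86.4 RPKM in Dnmt1+/+ and 153 in Dnmt1-/- MEFs, the highest level of the 49 genes in the latter and a relative log2 change of 0.91. Rpa2 was at 25.8 and 18.0 RPKM, and Rpa3 at 16.01 and 13.8. The ratio of Rpa1 to Rpa2 was 3.34 in Dnmt1+/+ and 8.53 in Dnmt1-/- MEFs. RPKM measures mRNA only, so whether the proteins differed in the same way was not measured.

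Of the 8 polymerase and primase genes, 7 were higher than the median of all entries and 1, Pola1, was well below it. Pola1, the catalytic subunit of polymerase alpha, was at 33.9 RPKM in Dnmt1+/+ and 16.2 in Dnmt1-/- MEFs, a relative log2 change of -0.97. Its partners in the same complex went the other way. Prim2, the large primase subunit, was at 23.2 and 37.3 RPKM, a relative log2 change of 0.77, Pola2 was at 37.2 and 46.5 RPKM, and Prim1 at 34.6 and 38.6. The 4 subunits spanned a 1.603-fold range of RPKM in Dnmt1+/+ and a 2.87-fold range in Dnmt1-/- MEFs.

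The polymerases that do most of the copying were close to the median. Pold1, the catalytic subunit of polymerase delta, was at 23.6 RPKM in Dnmt1+/+ and 23.1 in Dnmt1-/- MEFs, and Pold2 at 38.9 and 43.9. Pole, the catalytic subunit of polymerase epsilon, was at 15.7 and 17.6 RPKM, and Pole2 at 7.45 and 8.56. The ratio of Pole to Pole2 was 2.11 and 2.05. In the processing of Okazaki fragments, Fen1, the flap endonuclease, was at 33.2 and 61.5 RPKM with a relative log2 change of 0.97, just inside 2-fold, whereas Lig1, the ligase that seals the fragments, was at 39.9 and 42.0.

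**Figure D2:**
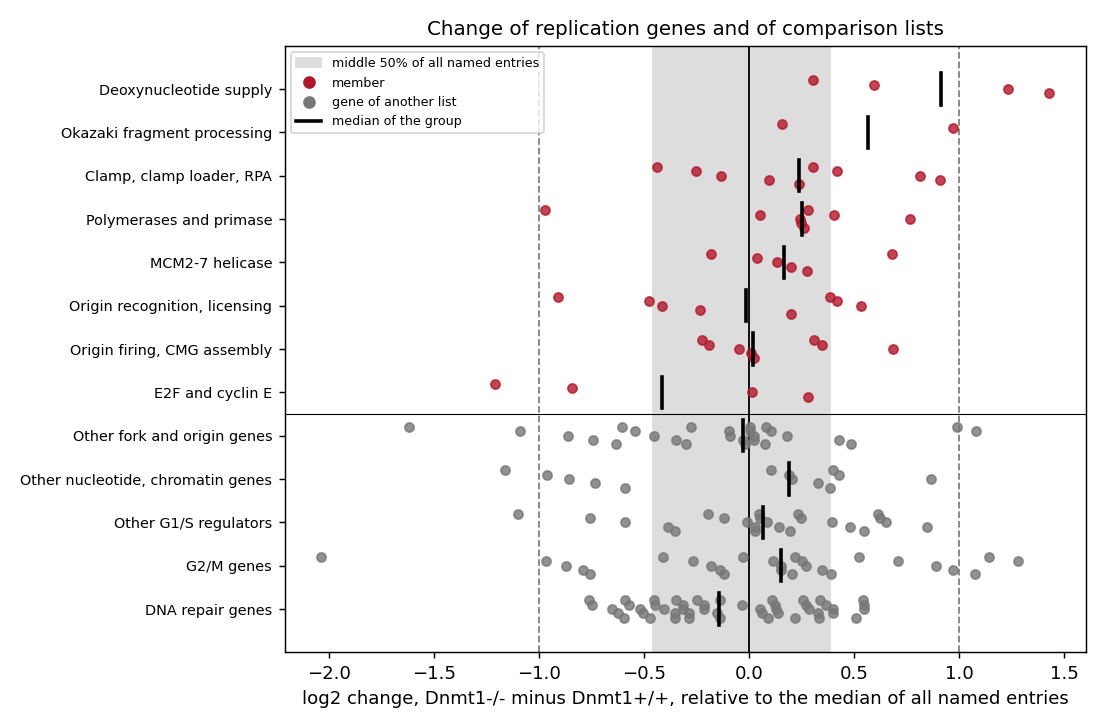
Relative log2 change (Dnmt1-/- minus Dnmt1+/+, less the median of all named entries) of each gene, for the 8 groups of replication genes in red and 5 comparison lists in grey, with black bars at the group medians, 2-fold marked by dashed lines and the middle 50% of all named entries shaded. Deoxynucleotide supply has the highest median, 0.92, and E2F and cyclin E the lowest, -0.41, each over 4 genes.

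The position of the genes in the genome went along with part of these differences. The 49 genes lie on 14 chromosomes. Those on chromosome 4 were all lower in Dnmt1-/- MEFs, namely Orc1, Rpa2, Ccne2 and E2f2, with relative log2 changes between -1.21 and -0.41. Chromosome 4 as a whole was lower too: its 381 named entries that reached 10 RPKM had a median relative log2 change of -0.44, the lowest of all chromosomes, and 14.4% of them were above the median of all entries. The other 18 autosomes had medians between -0.19 and 0.33.

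The reverse was seen on chromosomes 16 and 11, the chromosomes with the highest medians. On chromosome 16, with a median of 0.33 over 221 entries, Cdc45, Rfc4 and Mcm4 were all higher in Dnmt1-/- MEFs. On chromosome 11, with a median of 0.21 over 559 entries, Tk1, Rpa1, Cdc6 and Pold2 were all higher, with relative log2 changes between 0.26 and 1.43. Of the entries that reached 10 RPKM, 75.6% on chromosome 16 and 66.2% on chromosome 11 were above the median of all entries. Chromosome 5 holds 10 of the 49 genes (20.4%), against 6.15% of all named entries, and its entries that reached 10 RPKM had a median of 0.09. Pola1 is the one X-linked gene of the group (mm9 chrX:90550106-90877494). The 216 X-linked entries that reached 10 RPKM had a median of -0.24, with 20.4% of them more than 2-fold lower.

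When the median of all named entries on each gene's own chromosome was subtracted (-0.40 for chromosome 4, with no RPKM minimum), some of the changes shrank and others remained. Orc1 and Rpa2 were then at -0.02 and -0.04, about the median of chromosome 4, while Ccne2 was at -0.44 and E2f2 at -0.81. Pola1 was at -0.84, Orc4 at -0.75, Tk1 at 1.28 and Rrm2 at 1.29. With this adjustment 33 of the 49 genes were above the median and 2 past 2-fold were higher, but none was more than 2-fold lower. The part of the chromosome in the changes of single genes was not tested.

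**Figure D3:**
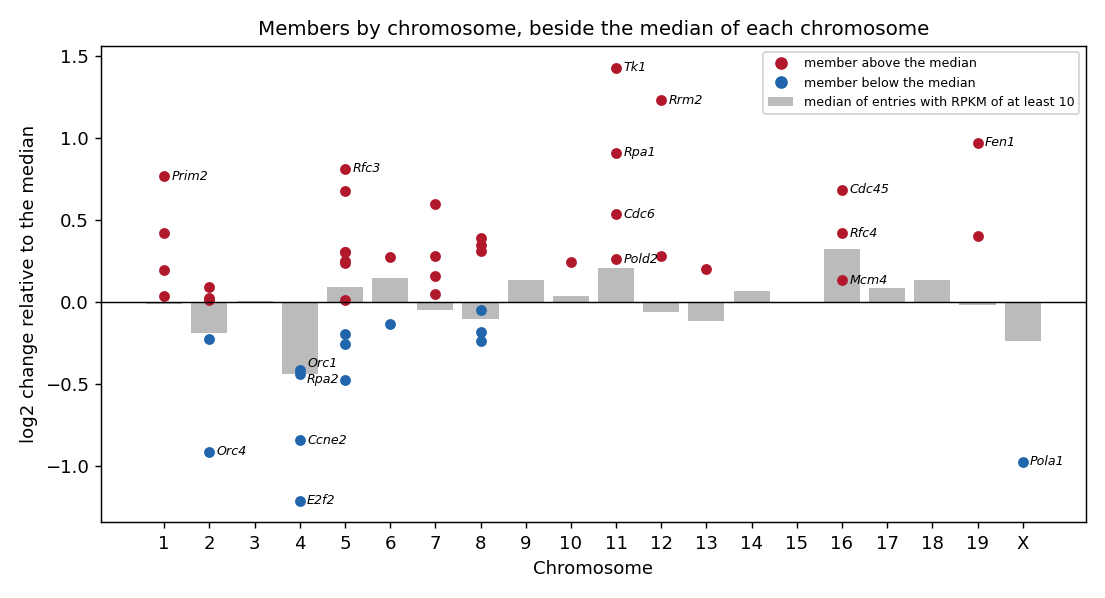
Relative log2 change of the 49 genes (points) by chromosome, beside the median of all named entries with an RPKM of at least 10 on that chromosome (grey bars). All 4 genes on chromosome 4 lie below zero, where the bar is at -0.44, and the genes on chromosomes 11 and 16 lie above it.

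Changes also went along with the length of the mRNA, taken as the longest coding transcript of each gene in the mm9 annotation. Over 13716 named entries with a length (92.3%), the median relative log2 change in 5 equal classes of length was 0.09 for the shortest, up to 1.688 kb, and -0.14 for the longest, from 4.846 kb. The Spearman correlation was -0.13 across these entries and -0.18 across the 49 genes, which is a description across genes measured in the same libraries. The replication genes in the shortest class, 12 in number, had a median of 0.24, and the 4 in the longest class had a median of 0.14. When the median of its length class was subtracted from each gene, the median of the 49 genes was 0.18, and Rpa1, with an mRNA of 5.077 kb, came to 1.05 and so past 2-fold.

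**Figure D4:**
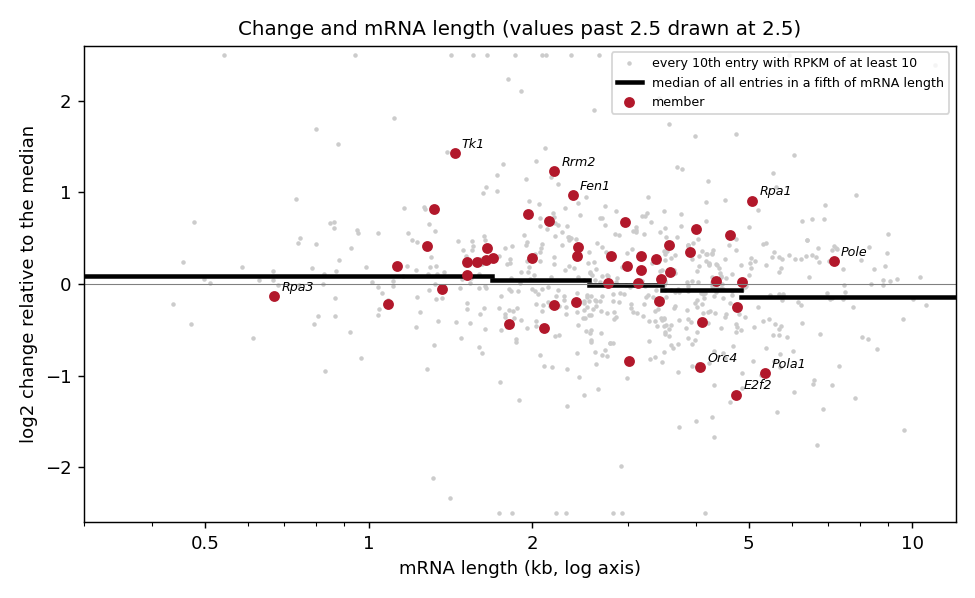
Relative log2 change against mRNA length (kb, log axis) for the 49 genes (red) and every 10th named entry with an RPKM of at least 10 (grey), with black lines at the median of all named entries in each of 5 length classes. The black lines step down from 0.09 to -0.14, and the red points scatter around and mostly above them.

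Further genes of the same pathway, listed by function, were less shifted than the 49. Over 64 entries of 3 sets the median relative log2 change was 0.03, with 36 above and 28 below the median of all entries. Past 2-fold, 1 entry was higher (1.56%) and 4 were lower (6.25%). Among 27 other fork and origin genes the median was -0.03. Pole4, a histone-fold subunit of polymerase epsilon, was at 18.0 RPKM in Dnmt1+/+ and 36.01 in Dnmt1-/- MEFs, while Pole3, its partner in that subcomplex, chosen after its values were seen, was at 41.5 and 25.2. Rif1, which regulates the timing of origin firing, was at 16.5 and 5.002 RPKM, and Dna2, a nuclease of Okazaki fragment processing, at 2.58 and 1.09.

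Among 13 other genes of nucleotide supply and replication-coupled chromatin assembly, the median was 0.19, and Nasp, a histone chaperone, was at 114 RPKM in Dnmt1+/+ and 48.0 in Dnmt1-/- MEFs. Nasp also lies on chromosome 4. Among 24 entries for other G1/S regulators the median was 0.07 and 1 was past 2-fold, an entry of Rb1 at 1.31 and 0.520 RPKM, while another entry of Rb1 was at 2.26 and 1.85. The genes next in the cell cycle had a similar median. Of 27 entries for G2/M genes, with a median of 0.15, Birc5, Aurkb and Kif23 were past 2-fold with higher values in Dnmt1-/- MEFs (11.1%), at 203, 63.4 and 116 RPKM against 88.5, 30.4 and 58.3, and Ccnb2 was lower, at 9.19 against 40.4. Of 48 DNA repair genes none was past 2-fold, and their median was -0.14. As there are no replicates, whether the replication genes differ from these lists was not tested.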

How the data were processed

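The submitters isolated total RNA with Trizol and had strand-specific mRNA libraries sequenced, 1 for Dnmt1+/+ and 1 for Dnmt1-/- MEFs. According to the methods, the authors used TopHat for mapping to mm9, Cufflinks for transcript assembly and Cuffdiff for quantification; versions are not given in the sources used here. The authors deposited RPKM per entry and library. The table holds no read counts, so depth, counting intervals and detection limits cannot be given from it; the totals of mapped reads that the study states were not used here. The deposited columns of fold changes and tests were not used. Columns named for wild type and knock-out were assigned to the genotypes by the study's own definition of these terms.

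From the deposited RPKM, log2(RPKM + 0.1) was computed for the 14865 entries with a symbol and the status OK, and the Dnmt1+/+ value was subtracted from the Dnmt1-/- value. The median of all these entries (-0.09) was then subtracted. A 2-fold difference from this median was counted, with 1.5-fold as a second threshold. Without replicates no test was made. All 49 genes could be named; of the other lists, genes past 2-fold were named, with Dnmt1 and Trp53 as checks. Further genes were named after their values were seen, as stated beside them. The genes and lists were chosen with earlier results of these data known. Ticrr, Rad51b and Rad51d, members of the comparison lists, were not analysed here.

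Positions, overlaps and mRNA lengths came from GENCODE vM1 (mm9), and promoters from RefSeq (GRCm38.p6), whose coordinates are not interchangeable with mm9. The computation of changes was tested on simulated data. Python 3.11.15, numpy 2.4.6, pandas 2.3.3 and matplotlib 3.10.9 were used. Alternatives were other pseudocounts, an RPKM minimum, other centrings, single-gene entries and the second threshold. Centring by mRNA length or chromosome, and leaving out genes on chromosome 4 or sharing a locus with another named gene, were added after the data were seen.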

Additional observations from a re-analysis of the deposited data

How the results depend on the processing

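With 1 library per genotype, none of the values has a measure of error, no library could be left out, and the RPKM table does not show depth. No paired analysis was possible because each genotype has 1 library. The median relative log2 change of the 49 genes stayed above 0 under every alternative run, between 0.15 without centring and 0.29 with an RPKM minimum of 1. The number of genes more than 2-fold lower, 1 in the values reported, was 0 with a pseudocount of 1 RPKM, 0 when centred on the same chromosome, 0 without the genes on chromosome 4, 2 without centring (Pola1 at -1.06 being added), and 4 at 1.5-fold. The number more than 2-fold higher, 2 in the values reported, was 9 at 1.5-fold and 1 without genes sharing a locus with another named gene, which leaves out Tk1. It was 3 with the RPKM minimum of 1, where Fen1 came to 1.03, and 3 when centred within 5 classes of mRNA length, where Rpa1 came to 1.05. E2f2, at -1.21, was at -0.55 with a pseudocount of 1 and at -0.81 when centred on its chromosome. None of the 3 genes past 2-fold changed sign under any alternative run.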

Other observations

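Cufflinks also assembled transcripts without a gene symbol at the loci of some of these genes. There were 13 such entries at the loci of 7 of the 49 genes, and 10 of them were below the median of all named entries, all of these by more than 2-fold. Their relative log2 changes lay between -3.22 and 1.15, with a median of -1.29. At the locus of Pole2 an unnamed entry was at 15.7 RPKM in Dnmt1+/+ and 4.55 in Dnmt1-/- MEFs, at that of Orc4 another was at 6.72 and 0.587, and at that of Gins2 another was at 12.9 and 3.11, while the named entries of Pole2 and Gins2 were slightly higher in Dnmt1-/- MEFs. The same direction was seen at the loci of other genes: of 1794 unnamed entries at loci of named entries, 67.2% were below the median of all named entries and 33.9% were more than 2-fold lower, with a median of -0.50. What these unnamed transcripts are was not tested.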
